A study of Mus musculus with 6 samples.

Results

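The type I interferon antiviral effectors examined here are 9 genes, Isg15, Ifit1, Ifit3, Mx1, Mx2, Oas1a, Oasl2, Eif2ak2 and Irf7, taken by symbol from the 32801 genes of a deposited expression table. All 9 were present. The table holds 3 libraries of NOD mice, which are prone to autoimmune diabetes, and 3 of C57BL/6 (B6) mice, the strain of the reference genome, all aged 3 weeks. Each is a bulk RNA-seq library of regulatory T cells (Treg) of the thymus, a lineage that keeps other T cells in check, and in both strains the sort took Thy1.1+ cells of the CD4+CD8- gate that lacked GFP. The labels do not state what GFP and Thy1.1 mark, nor whether a library came from 1 animal or from pooled animals, so p-values measure the spread between these libraries, which may be technical. Levels are normalized counts, taken here to be reads per gene that were scaled by the size factor of their library and then rounded. Libraries are named by strain and by the number in the table, NOD libraries 2, 10 and 18 and B6 libraries 4, 12 and 20.

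Type I interferons bind the receptor formed by Ifnar1 and Ifnar2, and the kinases Jak1 and Tyk2 then activate a transcription factor complex that includes Stat2 and Irf9. This complex binds interferon-stimulated response elements in the promoters of target genes, many of which encode proteins that act on viral RNA or on virus assembly. T cells and their thymic precursors carry the receptor and express such genes at a basal level. Isg15 is a ubiquitin-like protein that is conjugated to other proteins. The Ifit proteins bind viral RNA or each other, and the Mx proteins are dynamin-like GTPases that block virus replication. Oas1a makes oligoadenylates, a second messenger, when it meets double-stranded RNA, and Oasl2 is a relative of it with ubiquitin-like repeats. Eif2ak2 encodes PKR, a kinase that senses double-stranded RNA and stops translation, and Irf7 is the transcription factor that drives interferon-alpha genes.

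The promoters of 4 members are shown because they carry matches to the core of the interferon-stimulated response element. The core searched was GAAA, then any 2 bases, then GAAA, on both strands in the 250 bases before the RefSeq start (GRCm38.p6), and matches may overlap one another. Of 7 members with a promoter in RefSeq's table, 4 held a match, compared with 2.98% of 32851 promoters of the same length. A match is not particular to the members. It was held by 60% of 10 Ifit and Oas paralogs, 55% of 20 interferon ligands and 25.6% of 39 further interferon-stimulated genes. In the other interferon lists the share was 0 to 22.2%. Capitals mark the matches, which read TTTC, any 2 bases and TTTC where the element lies on the other strand, and each sequence runs 5′ to 3′ on the strand of the gene from 180 bases before the start to the last base before it, or to -19 for Ifit1.
Isg15: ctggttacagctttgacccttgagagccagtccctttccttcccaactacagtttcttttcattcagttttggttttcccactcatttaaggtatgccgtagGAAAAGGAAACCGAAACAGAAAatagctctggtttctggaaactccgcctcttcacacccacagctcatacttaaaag
Ifit1: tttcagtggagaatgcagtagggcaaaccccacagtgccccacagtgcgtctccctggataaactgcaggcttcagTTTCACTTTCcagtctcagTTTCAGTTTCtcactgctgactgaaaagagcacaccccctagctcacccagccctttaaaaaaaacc
Ifit3: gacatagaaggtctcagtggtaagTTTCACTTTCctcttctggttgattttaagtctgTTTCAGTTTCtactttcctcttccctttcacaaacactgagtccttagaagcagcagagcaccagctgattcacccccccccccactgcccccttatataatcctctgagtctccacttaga
Oas1a: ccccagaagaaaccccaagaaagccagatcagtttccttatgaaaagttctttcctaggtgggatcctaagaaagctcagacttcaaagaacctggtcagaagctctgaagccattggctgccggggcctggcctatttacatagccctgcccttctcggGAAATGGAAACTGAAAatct

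The Isg15 stretch (chr4:156200819-156200998, minus strand) held 3 overlapping matches, the first beginning at -78. Those of Ifit1 (chr19:34640709-34640870, plus strand) and Ifit3 (chr19:34583349-34583528, plus strand) held 2 each, beginning at -104 and -85 and at -156 and -122. Oas1a (chr5:120907526-120907705, minus strand) held 2 overlapping matches close to its start, beginning at -20 and -14. Oasl2, Eif2ak2 and Irf7 had no match in this window, which says only that these letters are not in it. Of the 4 genes shown, Ifit3 was called between the strains and the other 3 were not.

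The 9 genes did not move as a block between the strains. Mx2 and Ifit3 were higher in NOD Treg, Eif2ak2 was lower, and the other 6 did not pass the test. All 9 were among the 16442 genes that passed the filter of at least 10 normalized counts in 3 libraries. Called here means an adjusted p below 0.05 in limma (a linear model of log2(value + 1) with Benjamini-Hochberg adjustment over all 16442 genes). The 3 called members, 2 higher and 1 lower, compare with a background of 9.89% of all tested genes called (4.59% higher and 5.30% lower). They were also the 3 members whose libraries did not overlap between the strains, which was so for 24.1% of all tested genes (12.1% higher and 11.9% lower). In the authors' deposited table, Mx2 and Eif2ak2 had an adjusted p below 0.05, or 2 of 9 members, against 9.75% of the 21988 genes with a value there. Among the 16442 genes tested here, 1961 had an adjusted p below 0.05 in that table. The authors' fit may have used libraries beyond those analysed here, since their deposited mean does not rest on these alone. The median log2 fold change was 0.30 over the 9 members and 0.01 over all tested genes, and 8 of the 9 members had a value above 0. In bulk RNA, fewer cells of a type and less RNA per cell cannot be told apart.

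**Figure D1:**
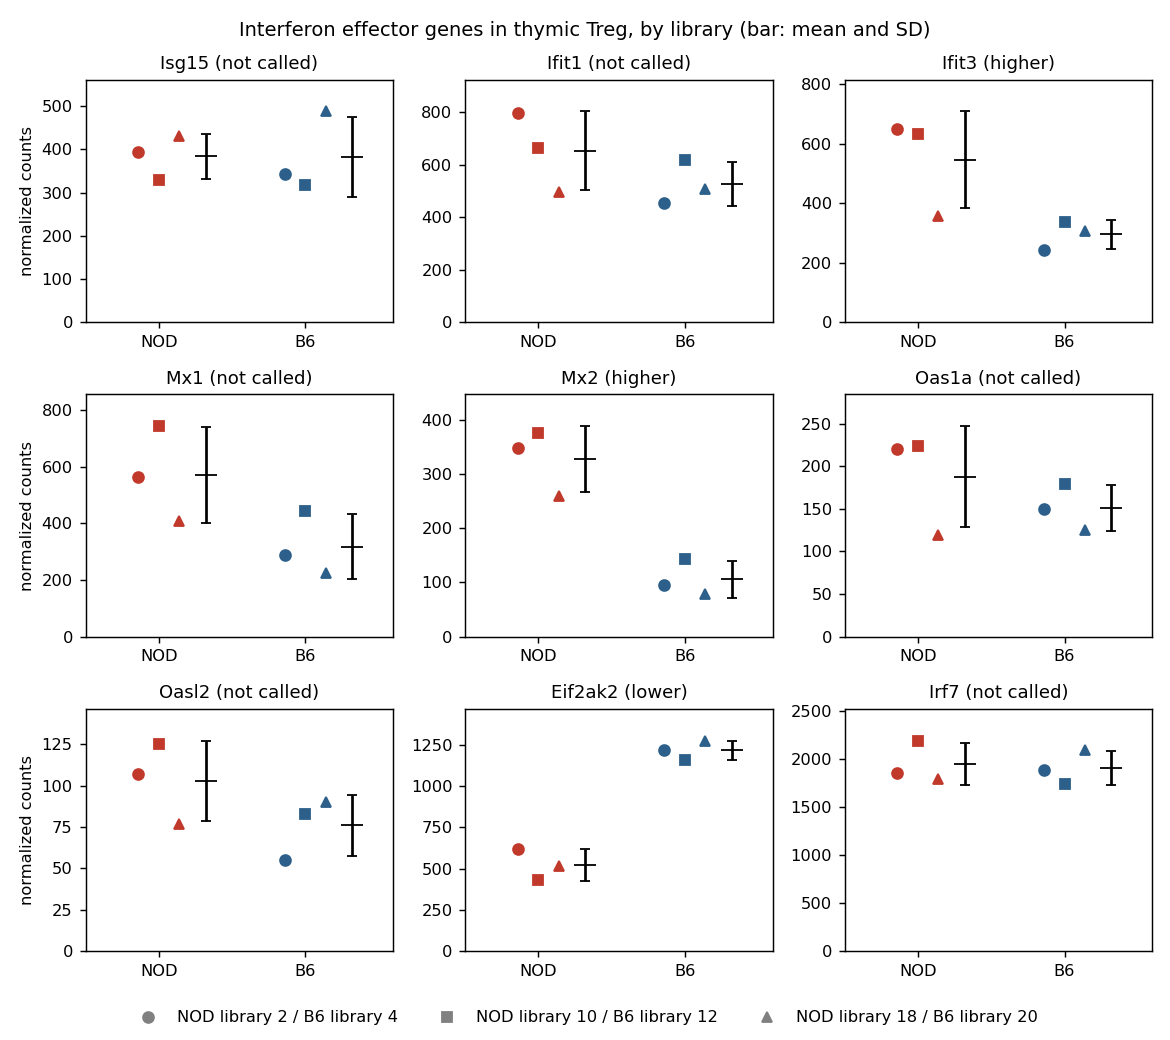
Normalized counts of each of the 9 genes in each library, NOD in red and B6 in blue, with the marker shape naming the library within its strain (equal shapes are not pairs) and the black bar giving the mean and SD of 3 libraries. The strains lie apart for Ifit3, Mx2 and Eif2ak2 and overlap for the other 6 genes.

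Mx2 was higher in NOD. It stood at 348, 376 and 259 normalized counts in NOD libraries 2, 10 and 18 and at 96, 144 and 78 in B6 libraries 4, 12 and 20. Every NOD library lay above every B6 library, and the means were 328 ± 61.1 and 106 ± 34.1 (SD, n = 3 each). The log2 fold change was 1.65 ± 0.24 (SE, limma adjusted p = 0.00091), a 3.13-fold difference with a 95% interval of 2.17 to 4.52. The gene lies on chromosome 16 (97535308 to 97560900, plus strand, GRCm38). GENCODE M21 lists Mx2 as a polymorphic pseudogene and RefSeq lists both Mx2 and Mx1 as transcribed pseudogenes in the B6 reference genome, so these are transcript levels of loci whose reference allele is not annotated by RefSeq as coding.

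Mx1, its neighbour on chromosome 16 (97447035 to 97462907, minus strand), had a difference in the same direction. It stood at 563, 744 and 407 normalized counts in the NOD libraries and at 287, 444 and 224 in the B6 libraries. The strains overlapped, since B6 library 12 lay above NOD library 18. The means were 571 ± 169 and 318 ± 113, with a log2 fold change of 0.86 ± 0.26 and a 95% interval of 0.29 to 1.43, and the limma adjusted p was 0.065. Mx1 passed the test without NOD library 18 (adjusted p = 0.039) and without B6 library 12 (adjusted p = 0.022), but in the other 4 fits that left out a library it did not, with adjusted p of 0.15 to 0.21.

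Of the 2 Ifit members, Ifit3 rose and Ifit1 did not pass the test. Ifit3 (chromosome 19, 34583531 to 34588731, plus strand) stood at 648, 631 and 358 normalized counts in the NOD libraries and at 242, 338 and 305 in the B6 libraries. The strains did not overlap, although NOD library 18 was only slightly above B6 library 12. The means were 546 ± 163 and 295 ± 48.8, with a log2 fold change of 0.85 ± 0.22 (limma adjusted p = 0.035). This call was lost without any one of NOD library 2 (adjusted p = 0.14), NOD library 10 (0.083), B6 library 4 (0.16), B6 library 12 (0.060) and B6 library 20 (0.075), and with every library scaled to the same total (0.052), whereas the adjusted p was 0.0040 without NOD library 18. In the authors' deposited table, whose fit may have used further libraries, the adjusted p of Ifit3 was 0.444, with a log2 fold change of 0.89.

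Ifit1 (chromosome 19, 34640871 to 34650009, plus strand) stood at 796, 665 and 496 normalized counts in NOD and at 454, 618 and 506 in B6. The ranges overlapped, with the 2 highest values in NOD. The log2 fold change was 0.30 (95% interval -0.10 to 0.69, limma adjusted p = 0.43). The 4 tested Ifit paralogs did not pass the test either, and their estimates were above 0. Ifit2 averaged 480 ± 99.0 in NOD against 361 ± 74.6 in B6, with a log2 fold change of 0.41 ± 0.19. Ifit1bl1 averaged 202 ± 64.7 against 149 ± 26.3 (0.40 ± 0.24), Ifit3b 88.7 ± 34.7 against 59.3 ± 11.8 (0.50 ± 0.32), and Ifit1bl2 12.7 ± 4.51 against 6.67 ± 5.69.

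Near-identical copies limit what can be said of Ifit3 and Oas1a. Of the 50-base words in GENCODE transcripts of Ifit3, 51.2% also occur in Ifit3b, and of those of Oas1a 57.6% occur in Oas1g. The share was 7.13% for Ifit1, 3.91% for Mx1, 4.38% for Mx2, 3.96% for Isg15, and below 0.3% for Oasl2, Eif2ak2 and Irf7. With the counts of Ifit3 and Ifit3b added, the sum was 747, 748 and 408 in NOD and 294, 411 and 358 in B6, and NOD library 18 then fell just below B6 library 12. The summed Ifit3 difference was 0.80 ± 0.23 on the log2 scale (limma adjusted p = 0.049). How the authors treated reads that match several genes is not given in the sources used here.

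The oligoadenylate synthetase members did not pass the test. Oas1a (chromosome 5, 120896256 to 120907521, minus strand) stood at 220, 224 and 119 normalized counts in NOD and at 150, 179 and 125 in B6. NOD library 18 was the lowest of all 6 while the other 2 NOD libraries were the highest, and the log2 fold change was 0.27 (95% interval -0.30 to 0.83, limma adjusted p = 0.66). Oasl2 (chromosome 5, 114896936 to 114912234, plus strand) stood at 107, 125 and 77 in NOD and at 55, 83 and 90 in B6. Its log2 fold change was 0.44 (-0.15 to 1.03, adjusted p = 0.43). The relatives Oas1b (181 ± 19.3 in NOD, 184 ± 26.5 in B6), Oas2 (63.0 ± 21.9 and 43.0 ± 17.3) and Oas3 (316 ± 60.7 and 260 ± 42.6) did not pass either. Oasl1 averaged 28.7 ± 3.79 in NOD against 55 ± 5.20 in B6, with a log2 fold change of -0.92 ± 0.28 and an adjusted p of 0.063, so that its estimate had the opposite sign to that of Oasl2. Oas1g held 0 to 3 normalized counts per library.

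**Figure D2:**
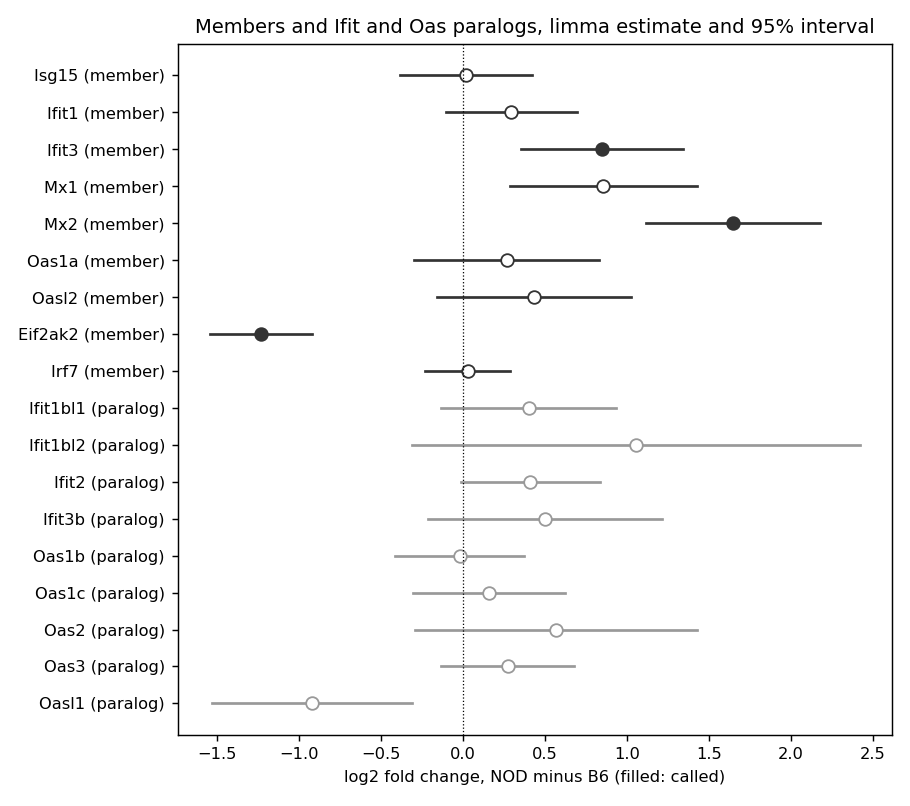
Log2 fold change of the 9 genes (dark) and of 9 Ifit and Oas paralogs (grey), NOD minus B6, with limma's 95% interval as a line and filled points for called genes. Mx2 at 1.65 and Eif2ak2 at -1.23 lie farthest from 0 among the members, and the intervals of Isg15, Irf7, Ifit1, Oas1a and Oasl2 span 0.

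Eif2ak2 fell in NOD, against the sign of the other members' estimates. It stood at 619, 431 and 517 normalized counts in the NOD libraries and at 1217, 1155 and 1275 in the B6 libraries. The strains were well apart, and the spread within each was small beside the gap between them. The means were 522 ± 94.1 and 1216 ± 60.0, a log2 fold change of -1.23 ± 0.14 (limma adjusted p = 0.00016), and B6 was 2.35-fold above NOD. The authors' deposited table gave -1.22 with an adjusted p of 1.87e-07. The gene lies on chromosome 17 (78852564 to 78882573, minus strand) and was called lower in each fit with a library left out (adjusted p of 0.00015 to 0.0020).

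Genes close to Eif2ak2 also differed between the strains. Of 16 other tested genes within 500 kb, 2 were called higher and 4 lower, or 37.5% against the 9.89% of all tested genes. The predicted gene Gm6548, 608 bases away, fell from 212 ± 5.03 normalized counts in B6 to 58.0 ± 6.93 in NOD (log2 fold change -1.86 ± 0.19, limma adjusted p = 7.7e-05). Gm26637, a non-coding RNA on the opposite strand that overlaps Eif2ak2 by 532 bases, was lower in NOD at 6.33 ± 3.79 against 24.7 ± 2.52, as was the sulfotransferase gene Sult6b1, 1365 bases away, at 3.67 ± 3.79 against 18 ± 1. Both calls were lost when NOD library 18 or any one of the B6 libraries was left out, and that of Sult6b1 also without NOD library 10. Both genes averaged below the filter's 10 normalized counts in NOD, so they passed the filter through the B6 libraries, where they were higher. They are among the 4 lower genes counted above. Without strand information in the sources used here, reads of Gm26637 and Eif2ak2 cannot be told apart where they overlap. Gpatch11, 4256 bases away, was higher in NOD (578 ± 65.1 against 378 ± 57.6, adjusted p = 0.024), a call that did not hold in the absence of any of NOD libraries 2 and 18 and B6 libraries 4 and 12. Cdc42ep3 and Gm10093 were the other 2 called genes, with log2 fold changes of -0.73 and 3.97. Heatr5b (log2 fold change 0.00) and Cebpz (0.05) did not pass the test. Whether reads of NOD origin align to this locus of the B6 genome as well as reads of B6 origin was not tested.

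The same count around Mx2 gave 1 gene higher and 3 lower of 9 (44.4%), and these lay 181033 bases or more from it. The receptor-interacting kinase gene Ripk4 was higher at 125 ± 62.0 in NOD against 27.3 ± 6.03 in B6 (log2 fold change 2.05 ± 0.38, limma adjusted p = 0.0044), and Dscam, Prdm15 and C2cd2 were lower, Dscam at 19 ± 10.8 against 82.7 ± 30.6. The calls of Prdm15 and C2cd2 were each lost in 5 of 6 fits that left out a library. The nearest tested gene, Tmprss2, averaged 24.7 ± 12.5 and 8.67 ± 5.13 and did not pass. Around Ifit3, Ifit1 and Oasl2 limma called 0 of 11, 10 and 26 genes (1, 1 and 4 at an unadjusted p below 0.05, and 0 in each by the authors' adjusted p). Over all members, 8 neighbours were higher and 9 lower of 148 tested (11.5%), and 4 and 3 without NOD library 18, 4 and 4 without B6 library 4, or 5 and 5 without B6 library 12.

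**Figure D3:**
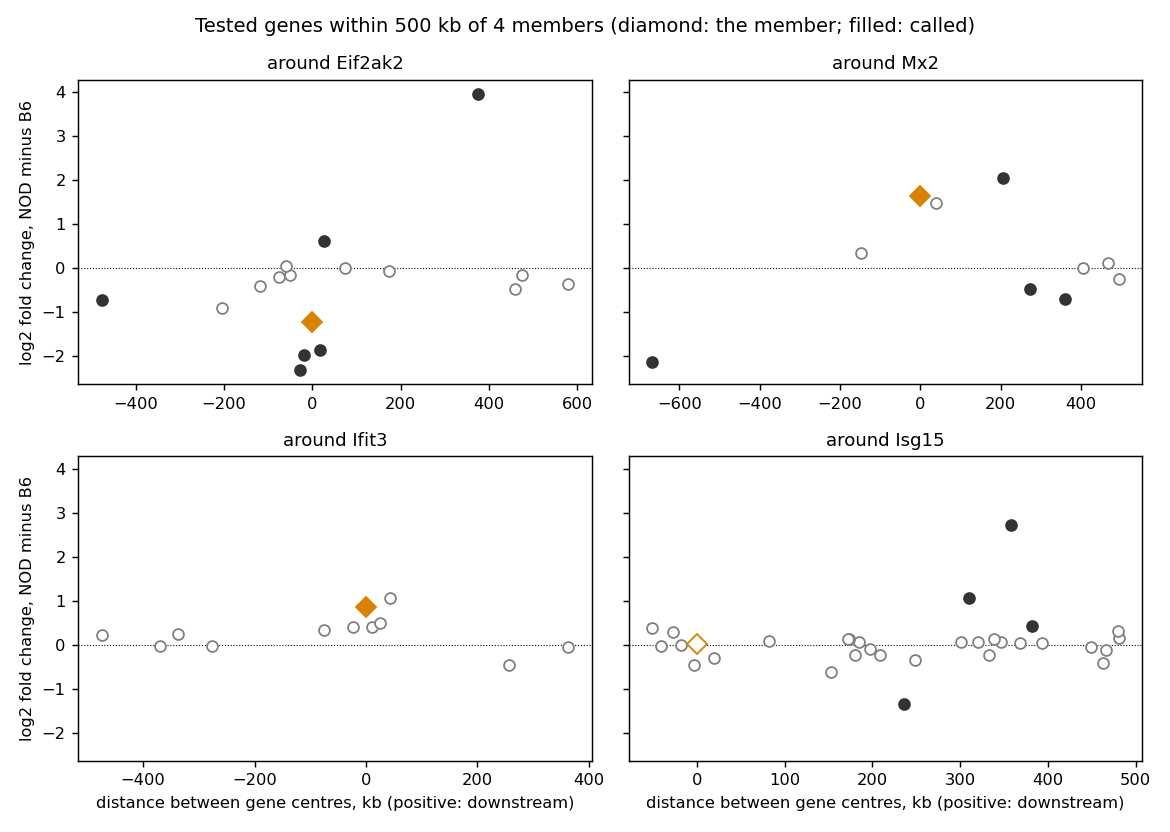
Log2 fold change, NOD minus B6, of tested genes within 500 kb of Eif2ak2, Mx2, Ifit3 and Isg15 against the distance between gene centres in kb, positive in the direction of transcription of the member. The diamond is the member itself and filled points were called. Near Eif2ak2, 3 called genes lie below 0 beside the member, of which Gm26637 and Sult6b1 passed the filter through the B6 libraries. Distance for inclusion was taken between gene ends, so that centres can lie farther apart.

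Isg15 and Irf7 did not pass the test, and their estimates lay close to 0. Isg15 (chromosome 4, 156199424 to 156200818, minus strand) stood at 393, 328 and 431 normalized counts in NOD and at 343, 317 and 488 in B6. The highest and the lowest of all 6 values were both in B6. The log2 fold change was 0.02 (95% interval -0.38 to 0.42, limma adjusted p = 0.97), an interval that reaches from 0.768 to 1.34 times the B6 level. Irf7 (chromosome 7, 141262706 to 141266481, minus strand) stood at 1862, 2196 and 1792 in NOD and at 1886, 1740 and 2099 in B6. Its log2 fold change was 0.03 (-0.23 to 0.29, adjusted p = 0.93), or 0.852 to 1.22 times the B6 level. The sign of both estimates turned with every library scaled to the same total (-0.02 for Isg15 and -0.01 for Irf7).

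Levels were compared between genes per kilobase of the longest transcript that GENCODE types as protein-coding or as a polymorphic pseudogene. In NOD, Irf7 was highest at 872 ± 96.5 normalized counts per kilobase, followed by Isg15 at 508 ± 68.9, Ifit3 at 313 ± 93.3, Ifit1 at 246 ± 56.6 and Mx1 at 169 ± 49.8. Mx2 at 132 ± 24.7, Eif2ak2 at 121 ± 21.8, Oas1a at 99.6 ± 31.6 and Oasl2 at 33.0 ± 7.76 completed the order. The library ranges of Irf7, Isg15 and Oasl2 were each apart from those of their neighbours in this order, and the ranges of every other adjacent pair overlapped. In B6 the order was Irf7 (853 ± 80.7), Isg15 (506 ± 122), Eif2ak2 (282 ± 13.9), Ifit1 (198 ± 31.6), Ifit3 (169 ± 28.0), Mx1 (94.0 ± 33.5), Oas1a (80.3 ± 14.3), Mx2 (42.8 ± 13.8) and Oasl2 (24.3 ± 5.93). There the overlapping neighbours were Ifit1 with Ifit3 and Mx1 with Oas1a. Per kilobase Eif2ak2 came directly after Isg15 in B6 and after Mx2 in NOD.

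Several members, though not all, were high or low in the same libraries of a strain, a description of 2 libraries chosen after the values were seen. NOD library 18 was the lowest NOD library for 7 of 9 members (all but Isg15, for which it was the highest, and Eif2ak2), where it was the lowest for 31.2% of all tested genes. B6 library 12 was the highest B6 library for 5 of 9 (Ifit1, Ifit3, Mx1, Mx2 and Oas1a), against 30.0% of all tested genes, and the lowest for Isg15, Eif2ak2 and Irf7. The first 5 genes showed both, against 10.9% of all tested genes. NOD library 18 was also the lowest NOD library for 64 of 117 other genes of the interferon system (54.7%), whereas B6 library 12 was the highest B6 library for 33 of them (28.2%). The estimated depth of NOD library 18 was the highest of the libraries with a clear estimate, at 21600000 reads, and the part of depth in this pattern was not tested.

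**Figure D4:**
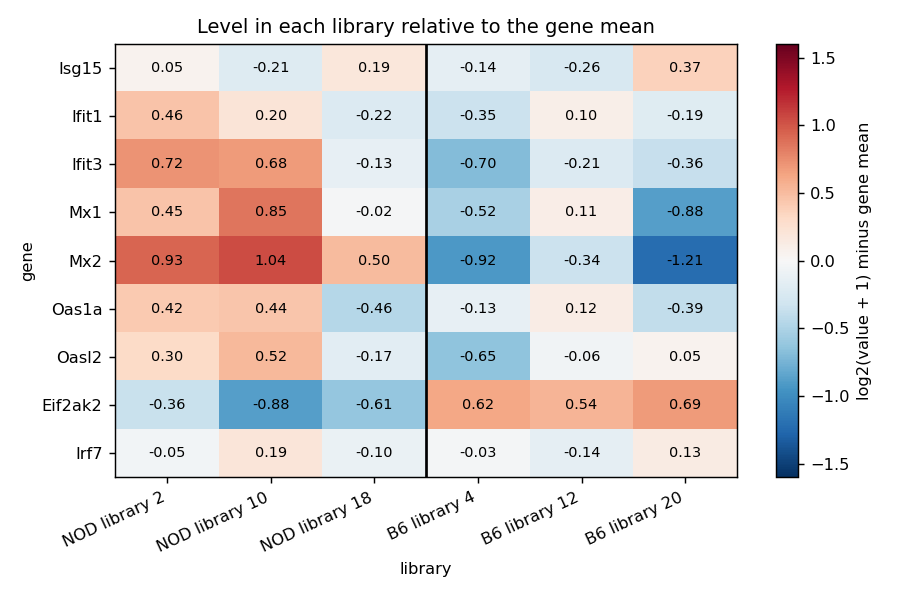
Level of each gene (rows) in each library (columns) as log2(value + 1) minus the mean of the gene over 6 libraries, red above and blue below that mean. NOD library 18 is the lowest of the NOD columns for 7 genes, and Eif2ak2 is below its mean in every NOD library and above it in every B6 library.

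Ratios within a library do not depend on its size factor, and for the Mx pair and the Ifit pair they did not overlap between the strains. These ratios were chosen after the values were seen, and their numerators Mx2 and Ifit3 were already called with the strains apart. The share of other gene pairs whose ratios do not overlap was not computed. The ratio of Mx2 to Mx1 was 0.618, 0.505 and 0.636 in the NOD libraries and 0.334, 0.324 and 0.348 in the B6 libraries. It varied little within B6 (0.336 ± 0.012) although Mx1 itself ran from 224 to 444, and its mean in NOD was 0.587 ± 0.071, a 1.74-fold difference. The ratio of Ifit3 to Ifit1 was 0.814, 0.949 and 0.722 in NOD and 0.533, 0.547 and 0.603 in B6, a 1.47-fold difference. For both pairs the exact two-sided permutation test gave p = 0.10, the smallest that 3 against 3 libraries allow. This p follows from the lack of overlap and adds nothing to it. The ratio of Oasl2 to Oas1a overlapped between the strains (0.564 ± 0.081 and 0.517 ± 0.183, exact p = 0.60).

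**Figure D5:**
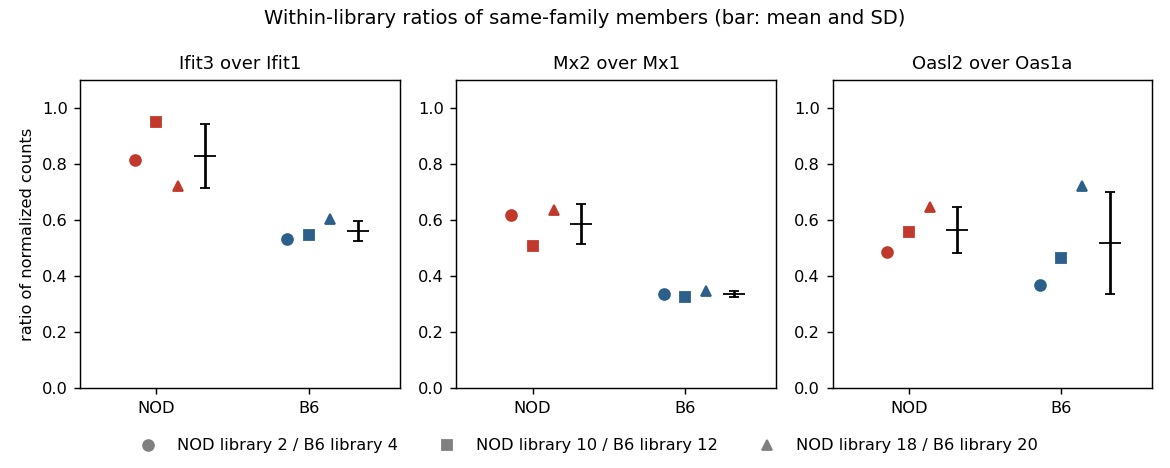
Ratio of normalized counts within each library for Ifit3 over Ifit1, Mx2 over Mx1 and Oasl2 over Oas1a, with the mean and SD of 3 libraries as a black bar. NOD lies above B6 in every library for the first 2 pairs, and the strains overlap for the last.

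The gene nearest to a member over the 6 libraries was taken as the one with the smallest root mean squared difference of centred log2 values, among 113 genes of the interferon system, members included, with a mean of at least 100. Oasl2 was below that mean. Ifit1 was nearest to its paralog Ifit1bl1 (difference 0.13, r = 0.96). Mx2 was nearest to Mx1 (0.41, r = 0.93), and Mx1 to Ifit3 (0.29, r = 0.86). Oas1a was nearest to Ifit1 (0.19, r = 0.86), Ifit3 to the RNA-sensing receptor gene Tlr7 (0.19, r = 0.94), and Irf7 to Irf3 (0.03, r = 0.995). Eif2ak2 was nearest to Ifih1 (0.37, r = 0.95) and Isg15 to Eif2s1 (0.14, r = 0.89). The 6 points of each comparison share strain and library depth, and r is given as a description.

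Upstream of the effectors, no gene of the receptor and its signalling passed the test. Of 12 tested, limma called 0 (2 at an unadjusted p below 0.05, and 0 by the authors' adjusted p). The receptor gene Ifnar1 averaged 9910 ± 487 normalized counts in NOD and 10573 ± 490 in B6 (log2 fold change -0.09, 95% interval -0.31 to 0.12), and Ifnar2 at 808 ± 10.5 and 965 ± 58.7 (-0.25, -0.49 to -0.02, limma adjusted p = 0.21). Jak1, at 11982 ± 448 and 11182 ± 584, and Stat2, at 1222 ± 79.0 and 1315 ± 107, were likewise not called. Of 21 interferon ligands on the list, 7 were found by symbol in the deposited expression table, and the other 14, Ifnb1 among them, were not. The 6 found genes other than Ifng did not pass the filter and reached at most 20 normalized counts, in Ifnk. Ifng, the type II interferon, was tested and averaged 58.3 ± 17.9 in NOD against 33.7 ± 3.21 in B6 (limma adjusted p = 0.19).

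Of 20 tested sensors and adaptors, 1 was higher and 1 lower, with a median log2 fold change of 0.01 over the list. Ifih1, which encodes the double-stranded RNA sensor MDA5, fell from 1046, 1092 and 955 normalized counts in B6 to 707, 671 and 719 in NOD (-0.56 ± 0.11, limma adjusted p = 0.0073), with no overlap of the strains, and was called in each fit with a library left out. Tlr7, an endosomal receptor for single-stranded RNA, was higher at 286, 224 and 194 in NOD against 114, 151 and 153 in B6 (0.74 ± 0.20, adjusted p = 0.040). That call was lost with any one of the 6 libraries left out (adjusted p of 0.051 to 0.18). The kinase and adaptor genes Traf6, Traf3 and Ikbke, the most abundant of the list, did not pass. Of 8 other interferon regulatory factors limma called 0 (1 at an unadjusted p below 0.05, and 0 by the authors' adjusted p), with Irf1 at 5638 ± 1161 in NOD and 4933 ± 776 in B6 and Irf9 at 3006 ± 190 and 2821 ± 231.

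Partners of the effectors were read from lists of their own, against the background of 9.89% of all tested genes called. Limma called 0 of 6 genes of Isg15 conjugation, also 0 at an unadjusted p below 0.05 and by the authors' adjusted p. The activating enzyme Uba7 averaged 2546 ± 253 in NOD and 2438 ± 16.3 in B6, and the ligase Trim25 at 2072 ± 252 and 1749 ± 214. Of 18 genes around PKR and its substrate eIF2, 1 was lower and 0 higher, with a median log2 fold change of 0.00. The lower gene was Eif2ak3, which encodes the endoplasmic reticulum kinase PERK (1158 ± 113 in NOD and 1557 ± 106 in B6, adjusted p = 0.037). Its call was lost without any one library other than NOD library 10. The other eIF2 kinases, Eif2ak1 (861 ± 113 and 848 ± 91.5) and Eif2ak4 (710 ± 52.4 and 719 ± 111), and the translation target Atf4 (4294 ± 798 and 4401 ± 345) did not pass.

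Of 44 further interferon-stimulated genes, 3 were higher and 4 lower (15.9%), with a median log2 fold change of 0.03. Apobec3, a cytidine deaminase that restricts retroviruses, fell from 1321 ± 159 normalized counts in B6 to 261 ± 24.7 in NOD (-2.33 ± 0.14, limma adjusted p = 9.0e-07). Trim34a fell from 532 ± 130 to 128 ± 36.5 (-2.06 ± 0.23), and both kept the call with any library left out. Whether reads of NOD origin align to Apobec3 and Trim34a of the B6 genome as well as reads of B6 origin was not tested. Xaf1 (728 ± 31.4 in NOD and 1011 ± 108 in B6) and Ifitm1 (14 ± 1.73 and 56.3 ± 38.4) were also lower. Samhd1, which degrades nucleotides needed for reverse transcription, rose from 9048 ± 168 to 12195 ± 152 (0.43 ± 0.09, adjusted p = 0.012), with Samd9l (6017 ± 533 against 4463 ± 435) and Trim30a (3439 ± 406 against 2551 ± 100). Each of these 5 calls was lost in 3 to 5 of 6 fits that omitted a library. Over all 117 tested genes of these lists 4 were higher and 6 lower (8.55%), and 0 and 3 without NOD library 2 or without NOD library 18, 1 and 4 without B6 library 4, and 1 and 3 without B6 library 12.

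The sorted identity and traces of other cells were read from marker lists, which were chosen with earlier results of these data known. Foxp3, the transcription factor of Treg, averaged 2018 ± 305 normalized counts in NOD against 2061 ± 344 in B6. Of 7 markers of Treg and T cells, 2 were called higher in NOD and 0 lower. These were Thy1 (5754 ± 605 against 2725 ± 159, limma adjusted p = 6.2e-05) and the T cell receptor subunit gene Cd3e (1916 ± 279 against 1115 ± 81.5, adjusted p = 0.0022), while Il2ra, Ikzf2, Ctla4 and Cd4 were not called. The sort itself selected on Thy1.1, and its part in the Thy1 difference was not tested. Siglech, the defining marker of plasmacytoid dendritic cells, which are known as a source of type I interferon, held 1 to 8 normalized counts per library, and the summed 7 markers of these cells 680 to 822 in NOD and 781 to 835 in B6, most of it Irf8 and Tcf4. Of 6 tested dendritic cell markers 3 were lower in NOD and 0 higher, among them Cd74 (352 ± 48.0 and 731 ± 70.3), with Itgax and Clec9a at most at 16 and 1. Summed macrophage markers were 89 to 124 in NOD and 146 to 175 in B6, B cell markers 151 to 210 and 176 to 224, and thymocyte markers 238 to 320 and 250 to 304, of which Cd8a was called higher (86.3 ± 46.0 against 15 ± 4.36, although the gate is labelled CD8-) and Rag1 lower. Thymic epithelial markers summed to 2804 to 3214 and 2971 to 3475, mostly Ly75, with Aire called lower at 3.33 ± 1.53 against 16 ± 6.08. Aire averaged below the filter's 10 normalized counts in NOD and so passed the filter through the B6 libraries. Natural killer markers summed to 102 to 162 and 54 to 77, mostly Eomes and Prf1, which were not called. Eomes averaged 52.0 ± 28.2 in NOD against 13.0 ± 6.08 in B6, with no overlap of the strains (limma adjusted p = 0.0501). By the authors' adjusted p, 1 of the 2 tested genes of this list was below 0.05. Of the other natural killer markers, Ncr1, Klrb1c, Klre1 and Klrk1 reached at most 9, 10, 6 and 22. The part of such cells in the differences above was not tested.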

How the data were processed

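The members and gene lists were chosen with earlier results of these data known. Trimmomatic, STAR, DESeq2 and the mm10 build were used by the authors, per the submitters' processing notes, while the read counter, its annotation and strandedness were not given in the sources used here. The sample columns of the deposited table are scores, marked norm in the file headers. These columns were taken to be counts divided by size factors and then rounded by the authors, which the headers do not state. The authors' log2 fold changes and p-values from DESeq2 are deposited beside them, and so is a mean, also a score. Columns give the strain but no replicate number of the labels, and 0 sample columns were left unused. Whole reads could not be recovered from the rounded values, so no count test was run. Totals were 16097369 to 17625903 normalized counts per library. Size factors estimated from gaps that rounding left, a method tested on simulated data, gave depths of 15500000 to 21600000 reads in 5 libraries, and no clear value in NOD library 2.

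Genes with at least 10 normalized counts in 3 libraries (2 in fits that omit a library) were tested with limma 3.58.1 in R 4.3.3 on log2(value + 1), which understates folds of low genes, with a term for strain alone, a mean-variance trend and two-sided tests. The fit was tested on simulated data. Named are all members and close paralogs, up to 4 higher and 4 lower called genes per list, the 3 most abundant uncalled ones as far as printed, and the nearest gene per member, except that some genes are not reported here; Ifnar2, Stat2, Eif2ak1, Eif2ak4, the neighbours and the marker genes were chosen after their values were seen. Positions and lengths are from GENCODE M21 (GRCm38, which mm10 names), joined by symbol (99.3% of tested genes), and promoters from RefSeq (GRCm38.p6).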

Additional observations from a re-analysis of the deposited data

Results flagged for a closer look

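The authors' deposited mean per gene does not rest on the 6 libraries analysed here alone, and for 7 of the 9 members it lay above the highest of these libraries. It was 1002 for Ifit1 (highest library 796), 1061 for Ifit3 (648), 812 for Mx1 (744), 583 for Mx2 (376), 264 for Oas1a (224), 276 for Oasl2 (125) and 2358 for Irf7 (2196). Over all tested genes the median ratio of the deposited mean to the mean of the 6 libraries was 1.004 (quartiles 0.858 and 1.21), and for the members it was 1.70, with 3.09 for Oasl2, 2.69 for Mx2 and 2.52 for Ifit3, each above the ratio of at least 98.8% of tested genes. For the 44 further interferon-stimulated genes the median ratio was 1.11. Isg15, at 0.951, and Eif2ak2, at 1.05, were near the middle of all genes. The labels used here do not say which libraries entered that mean, and the difference was not tested.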

How the results depend on the processing

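Under 15 planned settings (other pseudocounts, filters, scalings and moderation, and each library left out), Mx2 stayed called higher and Eif2ak2 lower, and Ifit1, Oas1a and Oasl2 stayed uncalled with estimates above 0. Members called higher were 1 with a common total and 1 without limma's trend, and 1 to 3 with a library left out. The interferon lists held 2 higher genes with a common total and 0 without the trend, and 0 to 3 higher and 3 to 7 lower with a library left out. Neighbouring genes were 5 higher and 5 lower without the trend, and 4 to 8 higher and 3 to 10 lower with a library left out. Over all genes, 490 to 781 were higher and 569 to 1011 lower with a library left out. The near-zero estimate of Isg15 turned to -0.0173 with a common total and ranged from -0.1004 to 0.21 with a library left out, and that of Irf7 turned to -0.0097 and ranged from -0.0588 to 0.10. The adjusted p of Ifit3 without the trend was 0.15. Summing near-identical copies was added after seeing the data. The cause of these changes was not tested, and a fit without a library has fewer samples. No paired analysis was possible because the columns carry no replicate number of the labels, and no label ties their own numbers to pairs. The edgeR and DESeq2 alternatives were not run because raw counts were not at hand.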
